A study of Mus musculus with 5 samples.

Results

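The 8 genes described here handle oxysterols and cholesterol: Ch25h and Cyp7b1, which encode oxysterol enzymes; Nr1h3 and Nr1h2, which encode the liver X receptors LXR alpha and LXR beta; Abca1 and Abcg1, which encode cholesterol exporters; and Srebf2 and Insig1, which encode a regulator of sterol synthesis and a protein that restrains it. They were chosen by gene name, as 8 of 19035 gene rows with a usable name, and all 8 were among the 14392 genes that passed a filter on low read numbers. The choice was made with their values in treated and untreated hearts already known, so those values are given as a description, with no test.

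The libraries came from hearts of C57BL/6 mice that carry a calcineurin transgene (MHC-CnATg), which is driven by the alpha myosin heavy chain promoter and so acts in heart muscle cells, where it produces severe hypertrophy. In the JIB-04 group (3 libraries) mice were given JIB-04, an inhibitor of Jumonji histone demethylases, at 50 mg/kg in 3 doses a week, and in the vehicle group (2 libraries) mice were given vehicle on the same schedule. Dosing started when the animals were 4 weeks old, and the hearts were taken at postnatal day 158. Both groups carry the transgene, and no heart without it is compared here. One letter of the genotype abbreviation differs in the title of JIB-04 replicate 3, while its genotype label is the same as for the other libraries. Whether every library is from its own animal is not stated, so p-values measure only the spread between these libraries.

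Oxysterols are oxidised forms of cholesterol that report how much cholesterol a cell holds. Ch25h makes 25-hydroxycholesterol, which binds Insig proteins and keeps the SREBP factors from entering the nucleus, and oxysterols also activate the liver X receptors, which turn on Abca1 and Abcg1 to export cholesterol. In mouse macrophages Ch25h is known as a gene induced by interferon, and 25-hydroxycholesterol has been studied for its antiviral and inflammatory actions.

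Values are as deposited under the header CPM (read counts that the authors scaled by library, with column sums of 954981 to 1046902), given as mean ± SD with n = 3 for JIB-04 and n = 2 for vehicle. The libraries held 33629722, 35650602 and 34782448 reads with JIB-04 and 37002846 and 32152168 reads with vehicle, recovered from the deposited values. A count of 3 reads corresponded to 0.0804 to 0.0977 CPM, for counting error only. The label of heart tissue was borne out by 10 cardiomyocyte markers, which summed to 96071 to 125003 CPM with JIB-04 and 110987 to 126026 CPM with vehicle. Over all genes, limma on log2(CPM + 1) with Benjamini-Hochberg adjustment called 0 genes (0%) at an adjusted p under 0.05, with a smallest adjusted p of 0.315. An unadjusted p under 0.05 was found for 564 genes with higher values in JIB-04 (3.92%) and for 363 with lower values (2.52%). edgeR's quasi-likelihood test also called 0 genes, with an unadjusted p under 0.05 for 615 higher and 329 lower genes. limma-voom called 0 genes, with 521 higher and 352 lower on that count. DESeq2 called 70 of 18771 genes higher (0.373%) and 16 lower (0.0852%), with no adjusted p for 5095 genes. When JIB-04 replicate 1 was left out, 29 genes passed limma's threshold, 27 of them higher and 2 lower. This library lay nearest to the vehicle libraries for Ch25h and Insig1, and values without it stand beside those genes.

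Among the 8 genes, Ch25h had the largest difference between the groups, followed by Insig1, Abcg1 and Cyp7b1, and the other 4 differed by 0.13 or less on the log2 scale. The lowest JIB-04 value was above the higher vehicle value for 3 genes (Ch25h, Cyp7b1 and Abcg1), as it was for 1545 of all genes tested (10.7%). The highest JIB-04 value was below the lower vehicle value for 2 genes (Insig1 and Nr1h2), as it was for 1735 of all genes tested (12.1%). These counts follow from the way the genes were chosen and are not read as results. The per-library values are shown in the plot of all 8 genes.

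**Figure D1:**
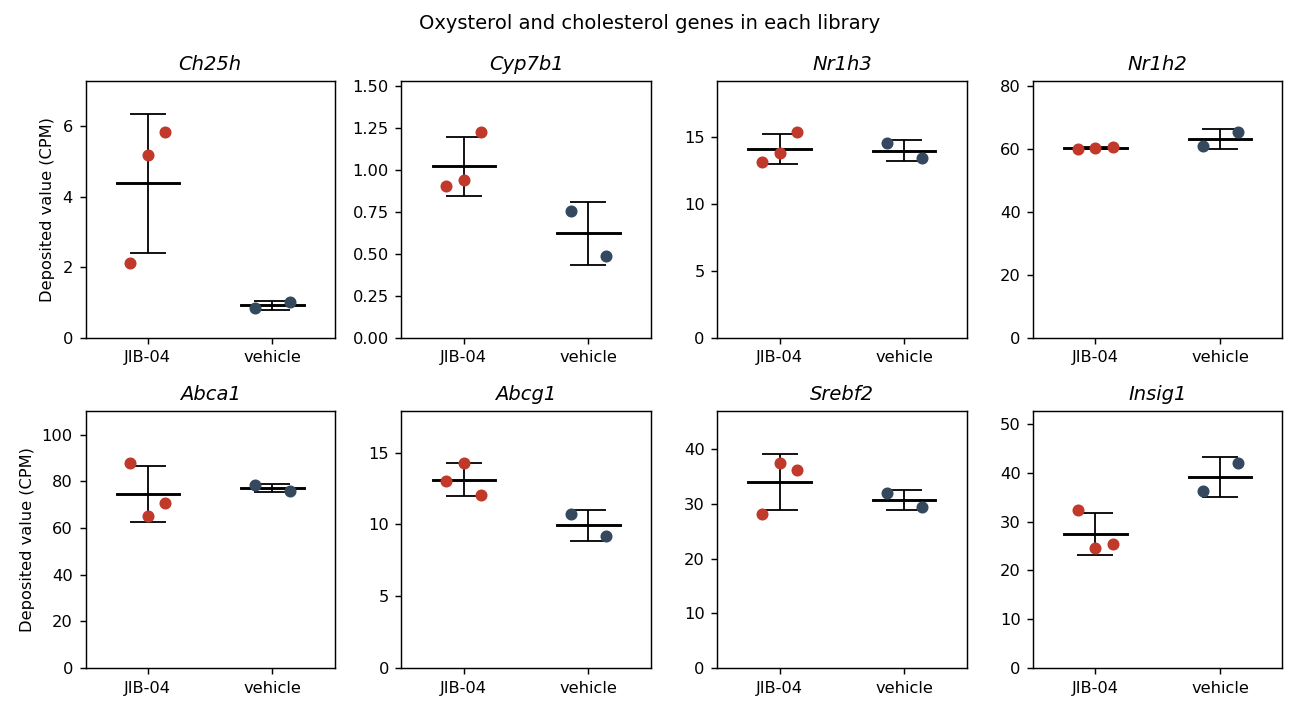
Deposited value (CPM, linear axes from 0) of each gene in each library, with JIB-04 (3 libraries, red) left of vehicle (2 libraries, dark blue); horizontal lines are group means and whiskers are SD. Ch25h lies between 2.13 and 5.82 CPM with JIB-04, above both vehicle libraries, Insig1 lies below both, and Nr1h3, Abca1 and Srebf2 overlap between the groups.

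Ch25h encodes cholesterol 25-hydroxylase, an enzyme of the endoplasmic reticulum. It is a gene of a single exon on chromosome 19, 34473783 to 34475135, minus strand (mm10). Ch25h had 2.13, 5.17 and 5.82 CPM with JIB-04, against 0.833 and 1.01 CPM with vehicle. JIB-04 replicate 1 was the lowest of its group, but the groups did not overlap, with all JIB-04 values on the high side. Behind these values stood 469 reads in all with JIB-04 and 62 with vehicle. Ch25h averaged 4.37 ± 1.97 CPM with JIB-04 and 0.921 ± 0.125 CPM with vehicle, a ratio of means of 4.75. Its log2 difference was 1.41 with an SE of 0.32, which ranked 7 of 14392 genes from the top. The difference was 1.76 without JIB-04 replicate 1. At such low CPM the pseudocount of 1 holds the value down: edgeR, which works on reads, gave 2.27. Ch25h was the 1 of the 8 genes that DESeq2 called, where it called 0.373% of genes higher, and nothing is read from this since the gene was chosen on the same contrast. An opposite-strand transcript, Gm26902 (34474808 to 34481546), overlaps Ch25h and has no row of its own in the files. The library kit keeps strand, but the strand setting used in counting is not given in the sources used here, so reads of the pair cannot be told apart.

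The 300 bases around the start of Ch25h (chr19:34475099-34475398, minus strand, RefSeq, GRCm38.p6; 250 bases before the start and 50 after it) and of Insig1 (chr5:28071162-28071461, plus strand) are shown because these genes had the largest positive and negative differences of the set. Capitals mark the matches to the motifs searched.
Ch25h promoter: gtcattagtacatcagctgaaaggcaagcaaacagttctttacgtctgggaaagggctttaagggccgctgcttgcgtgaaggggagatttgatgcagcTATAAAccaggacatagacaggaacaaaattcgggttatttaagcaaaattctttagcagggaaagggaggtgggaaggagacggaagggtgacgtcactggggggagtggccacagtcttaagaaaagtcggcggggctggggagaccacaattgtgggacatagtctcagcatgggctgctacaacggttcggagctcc
Insig1 promoter: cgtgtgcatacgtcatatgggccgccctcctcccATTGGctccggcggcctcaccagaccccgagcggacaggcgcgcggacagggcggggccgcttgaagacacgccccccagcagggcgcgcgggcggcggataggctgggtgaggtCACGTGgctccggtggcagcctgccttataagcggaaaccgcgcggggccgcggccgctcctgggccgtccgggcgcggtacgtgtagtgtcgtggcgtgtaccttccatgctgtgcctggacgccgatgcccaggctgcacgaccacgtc
The motifs were searched on both strands in the windows of 6 of the 8 genes, 7 windows in all, and in all 32851 windows of the RefSeq table. They were the sterol regulatory element TCACNCCAC (in 1.24% of all windows), the core of the interferon stimulated response element GAAANNGAAA (3.44%), CCAAT (37.4%), TATAAA (13.6%), the E box CACGTG (7.15%), the DR4 element that liver X receptors bind (0.134%) and the NF-kB site (8.46%). No motif searched overlapped another in these windows. The Ch25h window held TATAAA, starting 151 bases before the start, and none of the other motifs. The Insig1 window held CCAAT on the reverse strand, printed as ATTGG, 216 bases before the start, and an E box 101 bases before it. Insig1 had the highest G and C content of the windows at 71.7%, against 51% for Ch25h and a median of 52.67% over all windows. Elsewhere in the set, the Abca1 window held TATAAA 29 bases and an E box 147 bases before the start, and the Srebf2 window held CCAAT 135 bases before it. Each motif was searched as a fixed pattern, so a site that departs from it by a letter was not counted. On its reverse strand the Abca1 window held a stretch that departs from the DR4 pattern by a single letter. The lack of a DR4 match is therefore not read as the lack of a site for liver X receptors. The windows of Nr1h2 and Nr1h3 held none of the motifs. A match is a description of letters in this window and says nothing of binding.

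Cyp7b1, on chromosome 3 (18071949 to 18243338, minus strand, 6 exons), encodes the oxysterol 7 alpha-hydroxylase that acts on 25-hydroxycholesterol and 27-hydroxycholesterol. It had 0.90, 0.94 and 1.22 CPM with JIB-04, against 0.752 and 0.488 CPM with vehicle. The groups did not overlap, but JIB-04 replicate 1 and vehicle replicate 1 were only 30 and 28 reads. Cyp7b1 averaged 1.02 ± 0.18 CPM with JIB-04 and 0.62 ± 0.19 CPM with vehicle, from 108 and 43 reads in all, a log2 difference of 0.32 with an SE of 0.13. Without vehicle replicate 2 the difference was 0.20, and DESeq2 gave 0.72. The ratio of Ch25h to Cyp7b1 CPM was 2.37, 5.51 and 4.77 with JIB-04, against 1.11 and 2.07 with vehicle. This ratio was above both vehicle values in every JIB-04 library, but only narrowly in JIB-04 replicate 1. There it rested on 71 reads of Ch25h and 30 of Cyp7b1, against 31 and 15 reads in vehicle replicate 2. With so few reads, a steady shift between the RNAs of these enzymes is not read from it.

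The other enzymes of the list were 13, of which 12 had a row and 8 were tested. Of the 8, 2 had positive and 6 negative differences, with a median of -0.10, against -0.01 over all genes tested. None passed limma's adjusted threshold. At an unadjusted limma p under 0.05, 1 was higher and 2 lower, where the shares over all genes tested were 3.92% and 2.52%. The one with the smallest p among negative differences was Cyp27a1, the mitochondrial sterol 27-hydroxylase, which had 34.4, 28.9 and 34.6 CPM with JIB-04, against 41.6 and 50.6 CPM with vehicle. The groups did not overlap for Cyp27a1, with JIB-04 on the low side (log2 difference -0.48, SE 0.12, limma adjusted p = 0.526), where Ch25h had JIB-04 on the high side. Cyp46a1, the cholesterol 24-hydroxylase best known from neurons, had 2.13, 2.09 and 2.36 CPM with JIB-04, against 2.98 and 3.09 CPM with vehicle, below in every library (log2 difference -0.34). Hsd11b1, which regenerates glucocorticoids and also acts on oxysterols with an oxygen at carbon 7, had 8.28, 11.0 and 8.35 CPM with JIB-04, against 5.70 and 6.48 CPM with vehicle (log2 difference 0.52, limma adjusted p = 0.635). Hsd3b7, which acts after Cyp7b1 on the route to bile acids, had 15.3, 18.4 and 17.6 CPM with JIB-04, against 15.5 and 15.4 CPM with vehicle, and the groups overlapped.

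Nr1h3 encodes LXR alpha, the form abundant in liver, fat and macrophages. It lies on chromosome 2 (91184060 to 91195116, minus strand). It had 13.1, 13.8 and 15.3 CPM with JIB-04, against 14.5 and 13.4 CPM with vehicle, and the groups overlapped. Nr1h3 averaged 14.08 ± 1.12 CPM with JIB-04 and 13.96 ± 0.82 CPM with vehicle, a log2 difference of 0.01 with an SE of 0.10. The sign of this difference depended on the setting: 12 alternatives gave a positive and 3 a negative value, between -0.05 and 0.07.

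Nr1h2, on chromosome 7 (44549615 to 44553965, minus strand), encodes LXR beta, the widely expressed form. It had 59.96, 60.30 and 60.46 CPM with JIB-04, against 60.76 and 65.22 CPM with vehicle. The JIB-04 libraries were nearly level with each other and all were lower than vehicle, by a margin that was small beside the gap between the vehicle libraries. Its log2 difference was -0.06 with an SE of 0.06, and it was -0.01 without vehicle replicate 2 and also with plain CPM. The ratio of Nr1h3 to Nr1h2 CPM was 0.219, 0.229 and 0.253 with JIB-04, against 0.239 and 0.205 with vehicle, with overlapping groups.

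The partners and cofactors of the liver X receptors were 12 genes, all tested, and 0 passed limma's adjusted threshold or an unadjusted p under 0.05. All 12 had negative differences, from -0.13 to -0.01, as had 7649 of all 14392 genes tested. Their median was -0.07, and -0.01 with plain CPM. The median over all genes tested also depended on the scaling, at -0.01 in the main fit and 0.04 with plain CPM. Rxra, the retinoid X receptor with which an LXR pairs on DNA, had 69.1, 58.4 and 67.9 CPM with JIB-04, against 69.4 and 73.0 CPM with vehicle (log2 difference -0.13). Hdac3, the deacetylase of the corepressor complex, had 42.9 ± 1.5 CPM with JIB-04 and 46.2 ± 1.3 CPM with vehicle. Among 19 other oxysterol receptors and binding proteins, all tested, 6 differences were positive and 13 negative, with a median of -0.05, and 0 passed either threshold. Gpr183, a receptor on immune cells for an oxysterol that Ch25h and Cyp7b1 make together, had 1.59, 2.36 and 2.95 CPM with JIB-04, against 2.02 and 1.30 CPM with vehicle, and the groups overlapped (log2 difference 0.30, SE 0.21). Of the genes with the smallest p in this list, Smo, the Hedgehog signal transducer that binds oxysterols, had 24.4, 25.7 and 24.3 CPM with JIB-04, against 23.65 and 21.03 CPM with vehicle. Osbpl2, of the oxysterol binding protein family, averaged 51.6 ± 3.7 CPM with JIB-04 and 56.8 ± 0.9 CPM with vehicle. Rora, a nuclear receptor that can bind sterols, had a difference of -0.11 with overlapping groups.

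Abca1 and Abcg1 are the classical LXR targets of the set. Abca1, on chromosome 4 (53030788 to 53159895, minus strand, 50 exons), moves cholesterol to lipid-poor apolipoprotein A-I. It had 88.1, 65.1 and 70.7 CPM with JIB-04, against 78.5 and 75.9 CPM with vehicle. The vehicle libraries lay inside the JIB-04 range, whose highest value was in replicate 1. Abca1 averaged 74.6 ± 11.97 CPM with JIB-04 and 77.2 ± 1.9 CPM with vehicle, a log2 difference of -0.06 with an SE of 0.12. The sign turned when JIB-04 replicate 2 was left out (0.03), and the difference was -0.18 without JIB-04 replicate 1.

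Abcg1, on chromosome 17 (31057693 to 31117981, plus strand), passes cholesterol on to high density lipoprotein particles. It had 12.99, 14.30 and 12.05 CPM with JIB-04, against 10.7 and 9.18 CPM with vehicle. All JIB-04 values were above the vehicle values. Abcg1 averaged 13.1 ± 1.1 CPM with JIB-04 and 9.94 ± 1.07 CPM with vehicle, a ratio of means of 1.32. Its log2 difference was 0.37 with an SE of 0.11, and lay between 0.27 and 0.47 over 15 alternatives. The ratio of Abca1 to Abcg1 CPM was 6.78, 4.55 and 5.87 with JIB-04, against 7.34 and 8.27 with vehicle, lower in every JIB-04 library.

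The other LXR targets of the list were 17 genes, of which 14 were tested. They split evenly, with 7 positive and 7 negative differences, a median of -0.01 and 0 past either threshold. The groups overlapped for all 14. The median of these targets was 0.04 with plain CPM and 0.06 without JIB-04 replicate 1. Apoe, the apolipoprotein that carries cholesterol out of macrophages, had 288, 331 and 472 CPM with JIB-04, against 308 and 270 CPM with vehicle, a log2 difference of 0.30 with an SE of 0.20. Arl4c, a small GTPase, had 13.8, 19.2 and 18.2 CPM with JIB-04, against 12.3 and 15.6 CPM with vehicle. Mylip, a ubiquitin ligase, averaged 29.4 ± 4.3 CPM with JIB-04 and 29.9 ± 3.9 CPM with vehicle. Fasn, fatty acid synthase, averaged 71.6 ± 8.7 CPM with JIB-04 and 78.1 ± 3.4 CPM with vehicle.

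Srebf2 encodes SREBP-2, the factor that turns on the genes of cholesterol synthesis and uptake. It lies on chromosome 15 (82147268 to 82204960, plus strand, 19 exons). It had 28.2, 37.6 and 36.3 CPM with JIB-04, against 32.1 and 29.4 CPM with vehicle. JIB-04 replicate 1 was the lowest of all 5 libraries and the other JIB-04 libraries were the highest. Srebf2 averaged 34.0 ± 5.1 CPM with JIB-04 and 30.7 ± 1.9 CPM with vehicle, a log2 difference of 0.13 with an SE of 0.13, or 0.26 without JIB-04 replicate 1.

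Srebf2 also carries a microRNA, mmu-miR-33, in intron 16, and in mice this microRNA is known to hold down Abca1. Its mature 5′ arm (chr15:82198127-82198147, plus strand, RefSeq, GRCm38.p6) is shown with the seed, bases 2 to 8, in capitals, together with the sites in members of the set where the 3′ UTR, the part of the transcript after the stop codon, matches that seed.
mmu-miR-33-5p: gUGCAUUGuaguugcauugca
Abca1 site at chr4:53033801-53033822, minus strand: gtactgacactattCAATGCAa
Abca1 site at chr4:53033796-53033817, minus strand: gacactattcaatgCAATGCAc
Abca1 site at chr4:53033786-53033807, minus strand: aatgcaatgcacttCAATGCAa
Abcg1 site at chr17:31114988-31115009, plus strand: ggactaacgcaacgCAATGCAa
Abcg1 site at chr17:31114998-31115019, plus strand: aacgcaatgcaacgCAATGCAg
The letters CAATGCA are the match to the seed, and the sites of each gene lie so close that the printed stretches overlap. The Abca1 3′ UTR of 3156 bases held 3 matches. Cut to the same length, 0.161% of the 2490 3′ UTRs at least that long held 3 or more. Matches that share letters were counted separately, as were those starting at bases 135 and 140 of the Abca1 3′ UTR. The Abcg1 3′ UTR of 3703 bases held 2 matches, and 2.12% of 1742 held 2 or more. The 3′ UTRs of the other 6 genes held none. The microRNA itself was not measured in these libraries of messenger RNA, so its level is not known, and the level of Srebf2 does not stand for it.

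Insig1 encodes a membrane protein that binds SCAP in the presence of sterols, 25-hydroxycholesterol among them, and keeps the SREBP factors in the endoplasmic reticulum. Its own transcription is driven by SREBP, so Insig1 RNA is often read as a sign of SREBP activity. Insig1, on chromosome 5 (28071411 to 28078662, plus strand, 5 exons), had 32.4, 24.5 and 25.3 CPM with JIB-04, against 36.3 and 42.1 CPM with vehicle. All JIB-04 values were below the vehicle values, with replicate 1 again the nearest to them. Insig1 averaged 27.4 ± 4.3 CPM with JIB-04 and 39.2 ± 4.1 CPM with vehicle, a ratio of means of 0.700. Its log2 difference was -0.51 with an SE of 0.13, ranked 14326 of 14392 from the top, and it was -0.63 without JIB-04 replicate 1. The ratio of Insig1 to Srebf2 CPM was 1.15, 0.652 and 0.697 with JIB-04, against 1.131 and 1.433 with vehicle. In JIB-04 replicates 2 and 3 this ratio was lower than in both vehicle libraries, while JIB-04 replicate 1 lay between the vehicle libraries.

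**Figure D2:**
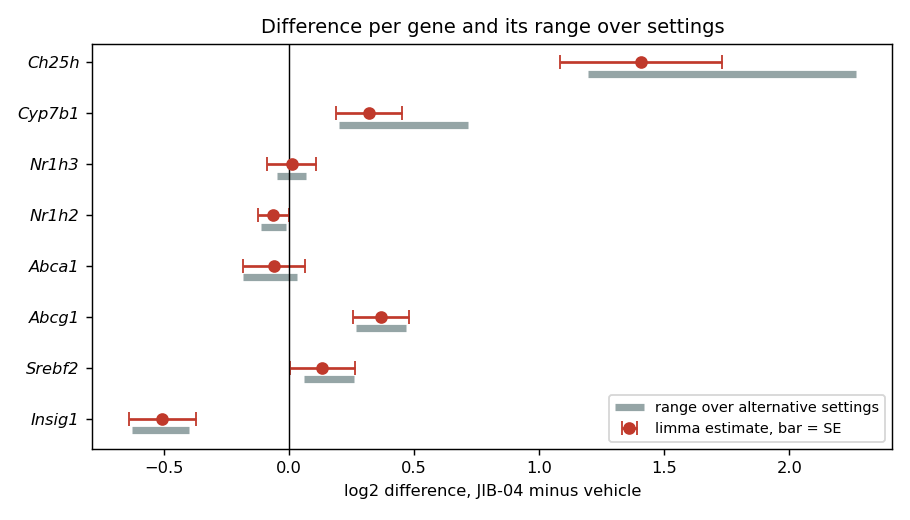
Log2 difference of JIB-04 minus vehicle for each gene on the log2(CPM + 1) scale from limma (red point, bar = SE), with the range over up to 15 alternative settings in grey. Ch25h reaches 2.27, Insig1 stays between -0.63 and -0.40, and the ranges of Nr1h3 and Abca1 cross 0.

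The other genes that sense sterols and process the SREBP factors lay closer to 0 than Insig1. Of 14 others, all tested, 5 differences were positive and 9 negative, from -0.13 to 0.17 with a median of -0.02 (0.03 with plain CPM), and 0 passed either threshold. Insig2, the second Insig gene, had 60.6, 52.6 and 51.2 CPM with JIB-04, against 57.9 and 61.6 CPM with vehicle, so the groups overlapped (log2 difference -0.13). Scap, the escort protein that Insig1 holds back, averaged 52.7 ± 1.0 CPM with JIB-04 and 53.6 ± 2.4 CPM with vehicle. Srebf1, which encodes the SREBP form that favours fatty acid synthesis and is also an LXR target, had 69.2, 51.9 and 56.0 CPM with JIB-04, against 53.9 and 50.4 CPM with vehicle (log2 difference 0.17).

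The 20 enzymes of cholesterol synthesis, targets of SREBP-2 for the most part, were all tested and split into 10 positive and 10 negative differences. Their median was 0.01 (0.05 with plain CPM), 0 passed either threshold, and the groups did not overlap for 4 of them, with JIB-04 on the high side for 2 and on the low side for 2, near the shares of 10.7% and 12.1% over all genes. Hmgcs1, the synthase that makes HMG-CoA, had 47.9, 45.7 and 44.2 CPM with JIB-04, against 42.9 and 42.4 CPM with vehicle, a log2 difference of 0.10. Sqle, squalene epoxidase, averaged 1.41 ± 0.39 CPM with JIB-04 and 1.04 ± 0.23 CPM with vehicle, with overlapping groups. Lss, which closes the sterol ring, averaged 4.35 ± 0.44 CPM with JIB-04 and 3.68 ± 0.0017 CPM with vehicle. Acat2, at the entry of the pathway, had a negative difference of -0.28 with an SE of 0.16.

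Of 25 genes of cholesterol uptake, transport and storage, 24 were tested, with 12 positive and 12 negative differences, a median of 0.00, 0 past the adjusted threshold and 1 higher at an unadjusted p under 0.05. That gene was Soat1, which esterifies cholesterol for storage in macrophages among other cells. Soat1 had 7.08, 9.70 and 10.7 CPM with JIB-04, against 6.34 and 5.08 CPM with vehicle (log2 difference 0.59, SE 0.18, limma adjusted p = 0.717). Of the lysosomal genes, Npc1 averaged 44.8 ± 6.0 CPM with JIB-04 and 49.9 ± 1.6 CPM with vehicle, and Npc2 averaged 59.9 ± 5.8 CPM with JIB-04 and 55.1 ± 1.9 CPM with vehicle. Lipa, the lysosomal lipase, had a difference of 0.02, and Gramd1a, a carrier of cholesterol to the endoplasmic reticulum, averaged 42.3 ± 4.6 CPM with JIB-04 and 49.2 ± 1.5 CPM with vehicle. Over all 7 lists, 110 of 119 genes were tested beside the 8, with 0 calls by limma or DESeq2. Of the 110, 41 had positive and 69 negative differences, beside 6743 and 7649 of all 14392 genes tested. At an unadjusted limma p under 0.05 these 110 included 2 genes higher and 2 lower, beside 3.92% and 2.52% of all genes tested. The groups did not overlap for 7 of the 110 with JIB-04 on the high side and for 15 with JIB-04 on the low side, beside 10.7% and 12.1% of all genes tested.

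**Figure D3:**
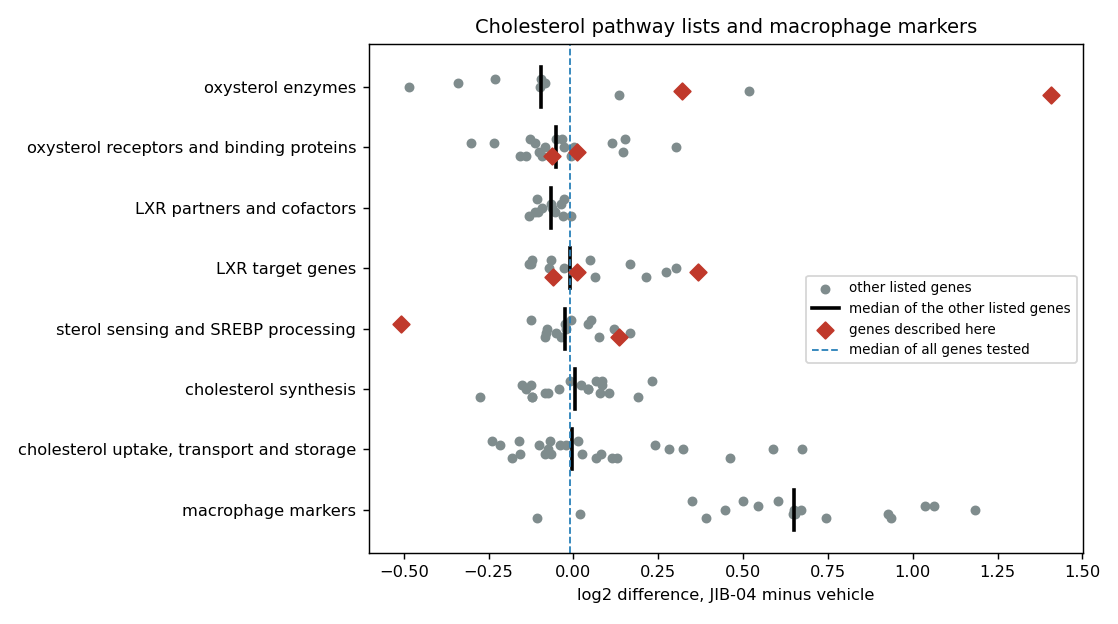
Log2 difference of JIB-04 minus vehicle (limma, log2(CPM + 1)) for the genes of each pathway list and for macrophage markers; red diamonds are the 8 genes described, grey points the other listed genes, black bars the median of the grey points and the dashed line the median of all genes tested, -0.01. Ch25h and Insig1 lie outside the span of the other genes of their lists, and the macrophage markers have a median of 0.65.

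Compared per kilobase of exon (CPM divided by the length of the merged exons in GENCODE M21), the level of Nr1h2 was the highest of the 8 genes in both groups, at 18.0 CPM per kb with JIB-04 and 18.8 with vehicle. Insig1 followed, at 8.86 with JIB-04 and 12.7 with vehicle, and then Abca1, at 7.20 with JIB-04 and 7.45 with vehicle. In the JIB-04 group the ranges of these neighbours, Insig1 and Abca1, overlapped, as did those of the next pair, Nr1h3 (5.60) and Srebf2 (4.74). Within each JIB-04 library, though, Insig1 was above Abca1 and Nr1h3 was above Srebf2. With vehicle Nr1h3 (5.55) came above Srebf2 (4.28). At the low end Ch25h had 3.15 CPM per kb with JIB-04, above Abcg1 at 1.80, but its library range of 1.54 to 4.20 took in that of Abcg1. With vehicle Ch25h had 0.664 CPM per kb, below Abcg1 at 1.36. Cyp7b1 was the lowest in both groups, at 0.471 CPM per kb with JIB-04 and 0.286 with vehicle.

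The pattern of Ch25h over the 5 libraries was set beside that of every other gene with a mean of at least 1 CPM, 12817 genes, as the root mean square difference of log2(CPM + 1) centred on each gene's mean. The nearest gene was Csf2rb2, a receptor subunit for interleukin 3 in mice, at 0.167, where the median gene was at 0.806. Csf2rb2 had 2.64, 5.81 and 8.21 CPM with JIB-04, against 1.80 and 1.43 CPM with vehicle. Next came Cx3cr1, the fractalkine receptor of monocytes and macrophages, at 0.193, with 6.42, 11.3 and 11.1 CPM with JIB-04, against 3.79 and 3.32 CPM with vehicle. Serpina3n, a secreted protease inhibitor, was at 0.217, with 144, 253 and 348 CPM with JIB-04, against 81.7 and 65.0 CPM with vehicle. Chil1, a chitinase-like protein, was at 0.218, and Ccl2, a chemokine that attracts monocytes, at 0.230. Chil1 had 3.00, 9.08 and 6.25 CPM with JIB-04, against 1.18 and 1.24 CPM with vehicle. Ccl2 had 1.41, 3.27 and 5.37 CPM with JIB-04, against 0.967 and 0.521 CPM with vehicle. All 5 shared with Ch25h an intermediate level in JIB-04 replicate 1. These genes were ranked on the same 5 libraries, so their likeness is a description. Within the set, Ch25h was nearest to Cyp7b1 (0.642) and farthest from Insig1 (1.07), and Nr1h2 and Nr1h3 were the nearest pair (0.099). The measure is not scaled, so genes that vary little lie near each other whatever their pattern. Nr1h2 and Nr1h3 had log2 differences of only -0.06 and 0.01, and shared regulation is not read from these distances.

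**Figure D4:**
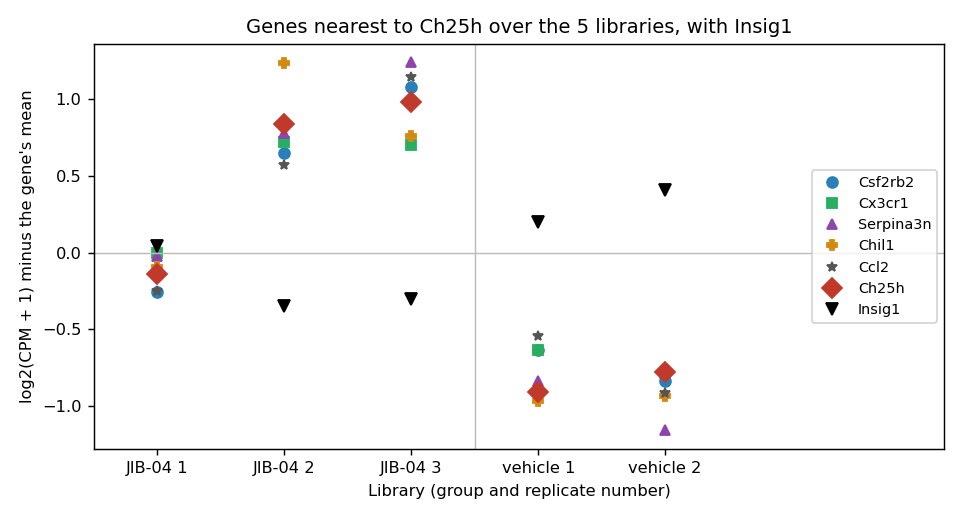
log2(CPM + 1) of Ch25h, of the 5 genes nearest to it and of Insig1, each minus the gene's own mean over the 5 libraries; JIB-04 libraries are left of vehicle libraries. Ch25h and its 5 nearest genes lie near their mean in JIB-04 replicate 1, above it in replicates 2 and 3 and below it with vehicle, and Insig1 lies the other way round outside JIB-04 replicate 1.

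Because Ch25h is known from macrophages, macrophage markers were read in the same libraries. In bulk tissue, a change in the number of cells of a type and a change in RNA per cell cannot be told apart. Of 18 markers, all tested, 17 had positive differences, as had 6743 of all 14392 genes tested. The markers had a median log2 difference of 0.65, with no marker at 0. In 11 of them the JIB-04 values all exceeded the vehicle values, and in none were they all lower, where the shares over all genes were 10.7% and 12.1%. Their summed level was 425, 575 and 670 CPM with JIB-04, against 426 and 309 CPM with vehicle, and JIB-04 replicate 1 lay between the vehicle libraries. Lyz2, a lysozyme gene, made up 26.6% of this sum. The mean over the markers of the log2 value relative to the vehicle mean was 0.30, 0.69 and 0.89 with JIB-04, against 0.17 and -0.17 with vehicle, so on that scale the groups did not overlap. Emr1, the gene of the F4/80 antigen, had 14.9, 20.7 and 20.4 CPM with JIB-04, against 11.4 and 7.36 CPM with vehicle, and DESeq2 called 4 of the 18 markers higher, where it called 0.373% of all genes higher. Cd163 and Lyve1, markers of resident macrophages, had the lowest differences of the 18, at -0.11 and 0.02. This pair was named after its values were seen and does not stand for resident macrophages as a whole. Others of the 18, such as Mrc1 (0.54), Ccr2 (1.06) and Cx3cr1 (1.18), had clearly positive differences. Fibroblast markers summed to 2668, 3571 and 3473 CPM with JIB-04, against 2704 and 2379 CPM with vehicle, and 2 of 10 lay above in every JIB-04 library. Lymphocyte markers summed to 8.97, 6.62 and 6.53 CPM with JIB-04, against 4.92 and 4.40 CPM with vehicle, with 5 of 11 above in every JIB-04 library. Neutrophil markers summed to 6.33, 4.85 and 14.5 CPM with JIB-04, against 4.84 and 6.25 CPM with vehicle, with 2 of 7 at 0 in every library. Red blood cell markers were lower with JIB-04, at 931, 1844 and 1349 CPM, against 3840 and 2512 CPM with vehicle, and endothelial markers overlapped at 827 to 1084 CPM with JIB-04 and 903 to 952 CPM with vehicle. The part of these shifts in the values of Ch25h and Insig1 was not tested.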

How the data were processed

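Per the labels' protocols, Trizol was used to extract RNA and a TruSeq stranded kit to prepare mRNA libraries. The submitters' processing notes name TopHat2 2.0.12, FastQC 0.11.2, Picard 1.127, Subread, featureCounts, edgeR and the build mm10, with no roles. The authors deposited 1 value per gene and library under the header CPM; it was treated as a normalised signal, since the deposited columns sum to 954981 to 1046902. All values (100%) were within 0.01 of whole multiples of 1 read, so whole reads were recovered. Of 19061 gene rows, 26 with names like calendar dates were left out. edgeR's filterByExpr (minimum 10 reads, 15 in total) kept 14392 genes. The test was limma 3.58.1 (R 4.3.3) on log2(CPM + 1), with eBayes allowing a trend of variance with level, Benjamini-Hochberg over all genes, threshold 0.05, with 3 residual degrees of freedom. A difference on this scale understates the change of low genes. edgeR 4.0.16 (quasi-likelihood), limma-voom and DESeq2 1.42.0 on recovered reads, other scalings, pseudocounts, filters, a replicate block and each library left out were alternatives, and the fits were tested on simulated data.

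The genes and lists were chosen with earlier results of these data known. Named beside the 8 were 19 pathway genes fixed by name, from each of 7 pathway lists the gene with the smallest limma p in each direction (mean CPM of at least 1), and the 5 genes nearest to Ch25h; marker genes and Cyp46a1 were named after their values were seen. Some genes that the rule names are not reported here. Exon lengths and 3′ UTRs came from GENCODE M21, which matched 18001 of 19035 genes; coordinates of genes are as in the files. The labels give no batch, sex or litter, so none could be examined. Intervals of counting error do not cover the spread between hearts.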

Additional observations from a re-analysis of the deposited data

How the results depend on the processing

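Over the alternatives, the number of genes called was 86 with DESeq2 and 0 to 29 with 1 library left out, with 29 when JIB-04 replicate 1 was the one, and 0 in the others. No other pathway gene was called in any of the 15 alternatives, and 27 pathway genes that the naming rule gave kept their side of the threshold in all 405 of their results. In 13 of these alternatives no gene at all was called, so no result could cross the threshold there. The count is therefore not read as a sign of stability. The log2 difference of Ch25h was 2.27 with edgeR, 2.14 with limma-voom, 2.26 with DESeq2 and 2.02 with a pseudocount of 0.1; that of Cyp7b1 was 0.71, 0.71, 0.72 and 0.65 in these settings. These settings use no pseudocount of 1, which holds down differences of genes near 1 CPM. Cyp7b1 had no value with a mean of at least 1, where it was filtered out. Nr1h2 was at -0.0106 with plain CPM and between -0.11 and -0.0123 with 1 library left out; the cause was not tested. Of 105 list medians, 15 moved by more than the spread between libraries. Replicate numbers are shared by the groups. Deviations of same-numbered libraries from their group means correlated at -0.13 in both pairs, and at 0.13 when the vehicle libraries were swapped. With 2 vehicle libraries these values mirror each other, so whether the numbers pair the libraries cannot be decided from them. With a replicate block, where JIB-04 replicate 3 adds nothing to the difference, 0 genes were called (smallest limma adjusted p = 0.660), and Ch25h was at 1.20 and Insig1 at -0.46. With 62 reads of Ch25h and 43 of Cyp7b1 in both vehicle libraries together, depth limits how well their ratios are known.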
